A study of Mus musculus with 4 samples.

Results

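T cell receptor beta variable (Trbv) and joining (Trbj) segments were followed in regulatory T (Treg) cells of mouse visceral adipose tissue (VAT). The members are all genes whose symbols start with Trbv or Trbj, 49 of the 32285 genes counted: 35 Trbv and 14 Trbj segments. All 49 were in the feature lists of both libraries and matched RefSeq (GRCm38.p6), where they lie on chromosome 6 from Trbv1 (start 40891296, end 40891885) to Trbv31 (start 41557693, end 41558371). RefSeq types 22 Trbv and 13 Trbj as segments, and 13 Trbv and 1 Trbj (Trbj2-6) as pseudogenes.

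Each developing T cell joins a Trbv, a diversity and a Trbj segment into its beta chain gene, and a Trav and a Traj segment into its alpha chain gene. The joined V and J regions, with the untemplated bases at their junction, form the part of the receptor that contacts peptide and MHC. Daughter cells inherit the same segments, so a group of cells with the same pairing can be a clone. VAT Treg cells are a resident Foxp3-expressing population in which many cells carry ST2, the receptor for interleukin-33 encoded by Il1rl1, and in which expanded receptor clones are well known.

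The cells were profiled by droplet 5′ single-cell RNA sequencing in 2 experiments, each a mixture of a pair of conditions marked by antibody hashtags. In the Srebf2 pool, all mice were males of 25 weeks that carried the Foxp3YFP-cre allele, which places Cre in Foxp3-expressing cells: 4 mice had the Srebf2WT/WT genotype (WT) and 4 had Srebf2flox/flox (KO). In the diet pool, all mice were males of 23 to 27 weeks with the reporter alleles Foxp3thy1.1 and PpargTdt: 5 were fed normal chow (NCD) and 5 were kept on a high fat diet (HFD), with 22 weeks of feeding. The sort took cells that were live CD3+ CD4+ Foxp3+. Mice of a condition were pooled under 1 hashtag, so there is 1 sample per condition, and the mouse that gave a cell is not known.

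Of 20492 barcodes, 16896 were kept: 3490 WT, 3956 KO, 4938 NCD and 4512 HFD cells, with medians of 3589.5, 3640.5, 3989 and 3193.5 unique molecular identifiers (UMIs, counted RNA molecules). The libraries shared 87 kept barcodes. Foxp3, which defines Treg cells, had a UMI in 55.4% (WT), 56.7% (KO), 53.7% (NCD) and 40.5% (HFD), and Cd3e, a chain of the CD3 complex, in 91.8% to 94.1% of cells. Srebf2 stood at 65.7 counts per 10⁶ UMIs (CPM) in WT and 3.95 CPM in KO cells. Cd79a, Lyz2 and Cd8a are at 0 because the rule for cells set them so. Lists for other cell types were summed in each condition. B cell genes ranged from 126 to 211 CPM over the 4 conditions (4 of 5 detected, mostly Cd74). Macrophage genes ranged from 3.604 to 4.37 CPM, NK cell genes from 1.67 to 14.5 CPM and gamma-delta T cell genes from 1.17 to 2.48 CPM. Erythroid genes ranged from 65.3 to 357 CPM and stromal genes from 0.856 to 25.2 CPM. The CD8 T cell list, with 1 of 2 genes detected, ranged from 12.9 to 18.9 CPM and the NKT cell list from 0.755 to 4.05 CPM. Plasma cell genes stood at 59.5 CPM in NCD, against 0.785 (WT), 0.851 (KO) and 4.91 CPM (HFD).

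Receptor segments were detected in most cells for the V region and in few for the J region. The share of cells with a Trbv UMI was 85.0% (WT), 87.2% (KO), 85.9% (NCD) and 91.1% (HFD). After each cell was thinned to 2000 UMIs, which left out 307, 311, 286 and 711 cells, the shares were 74.5%, 77.2%, 73.3% and 88.0%. Among barcodes with UMIs of the B cell genes Cd79a and Ms4a1 and none of Cd3e, which should lack these transcripts, 15.6% of 77 cells in the Srebf2 pool and 9.89% of 182 in the diet pool had a Trbv UMI, at median depths of 4331 and 3823 UMIs. Among barcodes with UMIs of the macrophage genes Lyz2 and Csf1r and none of Cd3e, the shares were 5% of 20 and 18.2% of 33, at medians of 3609 and 9641 UMIs. Trbv segments together gave 1022 (WT), 1219 (KO), 995 (NCD) and 1717 (HFD) CPM, the highest level in HFD cells.

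A cell was assigned the segment with strictly the most UMIs, at 1 UMI or more. This gave a Trbv call in 81.3% (WT), 83.0% (KO), 81.6% (NCD) and 87.0% (HFD). A Trbj call could be made in 11.3%, 11.4%, 11.3% and 14.9% of cells, so statements on Trbj rest on 395, 451, 558 and 672 cells. At least 2 UMIs of each of 2 Trbv segments were found in 5.36% (WT), 9.25% (KO), 8.26% (NCD) and 15.8% (HFD). The called segment held 92.4%, 91.1%, 90.8% and 87.5% of the Trbv UMIs in its cells.

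Of the 35 Trbv segments, 10 had no UMI in any condition, and all 10 are typed as pseudogenes. All 35 segments typed as functional, Trbv and Trbj, had UMIs. The remaining 4 segments that RefSeq types as pseudogenes had UMIs too: Trbv29, Trbj2-6, Trbv22 and Trbv12-3. Trbv29 had 1604 UMIs and took from 0.596% (NCD) to 4.58% (WT) of Trbv calls, while Trbv22 had 44 UMIs and Trbv12-3 had 2. Trbj2-6 had 502 UMIs, the second highest count of the 14 Trbj segments. Members of the Trbv12 and Trbv13 families are similar in sequence, and the sources used here do not say how the counting split reads between such copies, so their levels are uncertain.

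Usage, the share of cells with a Trbv call that carry a given segment, was led by Trbv20 in WT (361 cells, against 356 for Trbv12-2), Trbv5 in KO and Trbv12-2 on both diets. Over summed Trbv UMIs the leader differed in all 4 conditions: Trbv12-2 in WT (10.8%), Trbv1 in KO (15.4%) and NCD (17.2%), and Trbv3 in HFD (12.3%). Trbv20 took 12.7% of WT calls (95% Clopper-Pearson interval 11.5 to 14.0), against 3.02% in KO, 3.13% in NCD and 4.53% in HFD cells. Trbv5 took 16.8% of KO calls (15.6 to 18.2), 15.2% in NCD, 7.79% in WT and 6.42% in HFD cells. Trbv12-2 took 18.0% of NCD (16.8 to 19.2), 12.6% of WT, 11.4% of HFD (10.4 to 12.4) and 8.74% of KO calls. Differences between mice are not in these intervals, which measure counting error alone.

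Other abundant segments also differed between the conditions by more than their counting intervals. Trbv31, which lies downstream of the J and C segments in opposite orientation, took 16.5% of NCD calls (15.4 to 17.7), 6.57% of HFD, 3.56% of KO and 2.01% of WT calls. Trbv19 took 9.75% in KO, 8.05% in HFD, 3.35% in WT and 2.98% in NCD cells. Its intervals in WT (2.72 to 4.08) and NCD (2.48 to 3.55) overlap, and both lie below those in HFD (7.22 to 8.94) and KO (8.76 to 10.8). Trbv26 took 3.17% in WT, 5.43% in HFD, 7.71% in KO and 8.44% in NCD cells, and Trbv16 took 2.56% in NCD, 5.71% in HFD, 7.31% in KO and 8.43% in WT cells.

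The most even of the 10 leading segments was Trbv15, with 6.63% (WT), 5.58% (KO), 4.77% (NCD) and 4.61% (HFD). Trbv1 took between 4.30% and 7.35%, and Trbv3 between 6.43% in NCD and 10.8% in HFD cells. Averaged with equal weight over the conditions, the order was Trbv12-2 (12.7%), Trbv5 (11.6%), Trbv3 (7.88%), Trbv31 (7.16%), Trbv26 (6.19%), Trbv1 (6.13%), Trbv19 (6.03%), Trbv16 (6.001%), Trbv20 (5.85%) and Trbv15 (5.40%). Every neighbouring pair in that order has overlapping ranges over the 4 conditions.

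**Figure D1:**
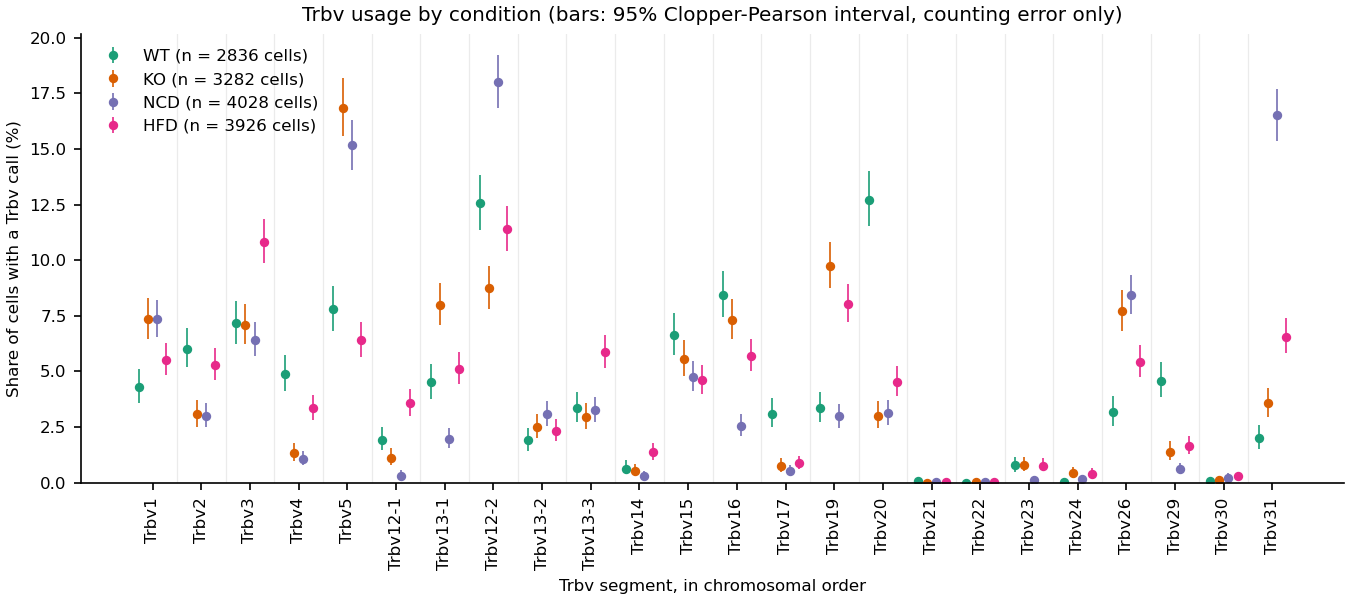
Share of cells with a Trbv call (vertical axis, %) that carry each of the 24 Trbv segments with any call (horizontal axis, chromosomal order), by condition; points are shares and bars 95% Clopper-Pearson intervals for counting error. Trbv20 stands at 12.7% in WT, Trbv5 at 16.8% in KO, and Trbv31 and Trbv12-2 at 16.5% and 18.0% in NCD cells.

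Segments were not seen with the same number of molecules per cell, which bears on usage. A WT cell called Trbv1 held a mean of 11.0 Trbv1 UMIs, and a WT cell called Trbv5 held 2.29 Trbv5 UMIs. In HFD cells the means were 11.7 and 4.25. Of Trbv5 calls, 37.1% in KO rested on 1 UMI, against 3.73% of Trbv1 calls. Counted over summed Trbv UMIs instead of cells, Trbv5 took 7.47% in KO.

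Trbj2-1 and Trbj2-6, the latter typed as a pseudogene, were the most often called Trbj segments in every condition. Most of these calls rested on 1 UMI, from 78.9% (HFD) to 91.7% (NCD) for Trbj2-1 and from 89.3% (WT) to 97.7% (NCD) for Trbj2-6. For Trbj1-1 this share was 66.2% (KO) to 87.5% (NCD), and for Trbj1-4 it was 74.7% (NCD) to 88.2% (KO). Trbv-Trbj combinations rest on the same calls. Trbj2-1 took 18.7% (WT), 18.0% (KO), 19.4% (NCD) and 24.0% (HFD) of Trbj calls, and Trbj2-6 took 21.3%, 22.0%, 15.4% and 14.9%. Trbj1-1 took 16.4% of KO calls (13.1 to 20.2), 7.85% of WT, 6.25% of HFD and 2.87% of NCD calls. Trbj1-4 took 14.9% of NCD calls (12.0 to 18.1), 7.59% of WT, 5.80% of HFD and 3.77% of KO calls. The Trbj2 cluster as a whole took 65.8% (WT), 61.9% (KO), 60.2% (NCD) and 69.3% (HFD).

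The constant segment downstream of each J cluster was compared with these calls. A rearrangement of a Trbv segment upstream of the clusters to Trbj2 deletes Trbc1 from that chromosome. Trbv31 lies downstream in opposite orientation, and its cells were not set apart. A Trbc1 UMI was found in 51.1% of WT cells called Trbj1 and 25.0% of those called Trbj2. The shares were 34.9% and 30.1% in KO, 22.5% and 18.2% in NCD, and 41.7% and 34.5% in HFD cells. The intervals of these Trbc1 shares overlap in KO, NCD and HFD and are apart in WT (42.4 to 59.8 and 19.9 to 30.7). A Trbc2 UMI was found in 68.1% of WT cells called Trbj1 and 68.8% of those called Trbj2. Its shares were 67.4% and 74.6% in KO, 51.4% and 53.0% in NCD, and 63.1% and 73.6% in HFD cells. In every condition, cells called Trbj1 held a Trbc2 UMI more often than a Trbc1 UMI.

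Combinations of segments were next compared. The most frequent Trbv-Trbj combination of WT was Trbv12-2 with Trbj2-1, in 17 of 336 cells with both calls, followed by Trbv16 with Trbj1-4 in 12 and Trbv12-2 with Trbj2-6 in 10. In KO, Trbv5 with Trbj1-1 was found in 26 of 407 cells, Trbv19 with Trbj2-6 in 17 and Trbv5 with Trbj2-6 in 13. In NCD, Trbv12-2 with Trbj1-4 was found in 46 of 476 cells (9.66%, 7.16 to 12.7), Trbv5 with Trbj2-1 in 26 and Trbv5 with Trbj1-2 in 18. In HFD no combination passed 13 of 611 cells, the count of Trbv16 with Trbj2-1 and of Trbv31 with Trbj2-1, and Trbv12-2 with Trbj2-1 had 12.

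These leading combinations were unevenly spread. Trbv12-2 with Trbj1-4 was found in 1 WT, 1 KO and 3 HFD cells beside the 46 in NCD, and 43 of those 46 cells had an Il1rl1 UMI. Trbv5 with Trbj1-1 was found in 3 WT, 0 NCD and 3 HFD cells beside the 26 in KO; 0 of 476 NCD cells allows a share of up to 0.630%. Trbv12-2 with Trbj2-1 was found in every condition, in 5.06% (WT), 2.95% (KO), 1.47% (NCD) and 1.96% (HFD) of cells with both calls.

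Alpha chain segments were called in more cells than Trbj and were used to follow the same beta segments. The pairs named here were chosen after their values were seen. Trbv31 with Trav7-5 was found in 247 of 3000 NCD cells with both calls (8.23%, 7.27 to 9.27), in 5 of 2614 HFD cells and in 0 of 1727 WT and 0 of 2342 KO cells, which allow shares of up to 0.174% and 0.128%. Trbv31 with Trav8n-2 was found in 217 NCD cells and 2 HFD cells. In percentage points, Trbv31 was the Trbv segment whose usage differed most between the diets, at 16.5% in NCD and 6.57% in HFD cells (a log2 ratio of shares of −1.33); as a ratio, Trbv12-1 differed more (0.323% in NCD and 3.57% in HFD cells, 3.42).

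Trbv5 with Trav7-3 was found in 200 of 2342 KO cells (8.54%, 7.44 to 9.75), 0 WT, 2 NCD and 4 HFD cells, and Trbv5 with Trav10 in 204 NCD cells, 3 WT, 2 KO and 5 HFD cells. The leading alpha partner of Trbv5 thus differed between KO and NCD cells. Trbv20 with Trav1 was found in 107 of 1727 WT cells (6.20%, 5.11 to 7.44) and in 0 cells of each other condition (2342, 3000 and 2614 cells with both calls, which allow up to 0.128%, 0.100% and 0.115%). The leading HFD pair, Trbv3 with Trav7d-3, was found in 23 of 2614 cells (0.880%).

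Outside HFD, the leading Trbv-Trav pair of each condition lay mostly in Il1rl1-positive cells, those with at least 1 Il1rl1 UMI. Such cells made up 71.0% (WT), 58.7% (KO), 78.1% (NCD) and 17.6% (HFD) of all cells. An Il1rl1 UMI was found in 96.8% of NCD cells with Trbv31 and Trav7-5 (93.7 to 98.6), 92.0% of KO cells with Trbv5 and Trav7-3 (87.3 to 95.4) and 92.5% of WT cells with Trbv20 and Trav1 (85.8 to 96.7). None of the 23 HFD cells with Trbv3 and Trav7d-3 had one, for which the interval reaches 14.8%.

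**Figure D2:**
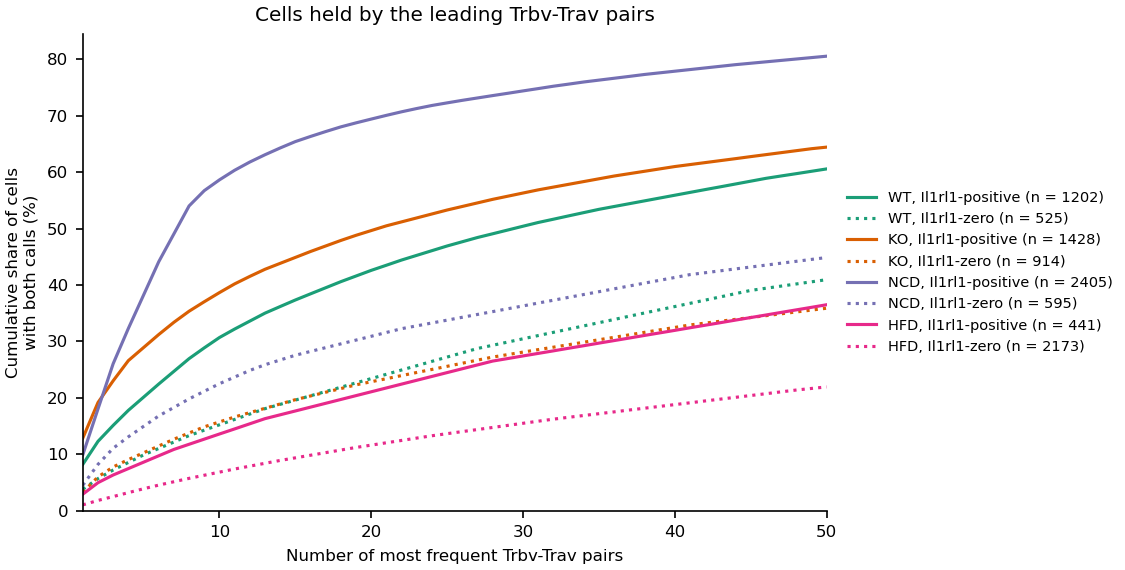
Cumulative share of cells with both a Trbv and a Trav call (vertical axis, %) held by the most frequent pairs (horizontal axis, number of pairs), for Il1rl1-positive (solid) and Il1rl1-zero (dotted) cells of each condition. The 10 leading pairs hold 58.6% of NCD Il1rl1-positive and 6.86% of HFD Il1rl1-zero cells; the share also depends on the number of cells, which differs between classes.

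Beta segment usage was then compared between Il1rl1-positive and Il1rl1-zero cells by the chance that 2 cells of a class share the call, with its analytic counting error. For Trbv alone the chance was 7.81% ± 0.197 (SE, 2001 cells) in positive and 6.26% ± 0.182 (835 cells) in zero cells for WT mice, 10.2% ± 0.312 and 6.83% ± 0.170 in KO, 12.2% ± 0.243 and 6.96% ± 0.220 in NCD, and 6.68% ± 0.216 and 6.54% ± 0.105 in HFD. The positive class was higher in 4 of 4 conditions, and the gap in HFD (0.139 ± 0.240 points) was smaller than its error. The exact two-sided sign-flip permutation test over the 4 conditions gave p = 0.125, the smallest value that 4 conditions allow.

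For Trbv and Trbj together the chances in positive and zero cells were 1.29% and 0.855% in WT, 1.62% and 0.990% in KO, 2.68% and 0.683% in NCD, and 0.717% and 0.709% in HFD. The mean difference was 0.768 points ± 0.858 (SD, n = 4 conditions), positive in 4 of 4, with exact permutation p = 0.125. The gap was 1.99 ± 0.427 points (SE) in NCD, 0.438 ± 0.2997 in WT, 0.631 ± 0.3396 in KO and 0.00865 ± 0.262 in HFD. This SE takes cells as independent and leaves out differences between mice, so it gives no test within a condition. With own hashtags at 99% or more, where few cells had both calls, the mean difference was −3.96 points and positive in 3 of 4 conditions.

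For Trbv and Trav together the chances in positive and zero cells were 1.53% and 0.425% in WT, 2.77% and 0.420% in KO, 4.13% and 0.716% in NCD, and 0.304% and 0.171% in HFD. The ratio of positive to zero was 3.598 (WT), 6.59 (KO), 5.76 (NCD) and 1.78 (HFD). Calls of all 4 kinds of segment were made in only 11 to 68 cells of a class and gave no usable value.

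**Figure D3:**
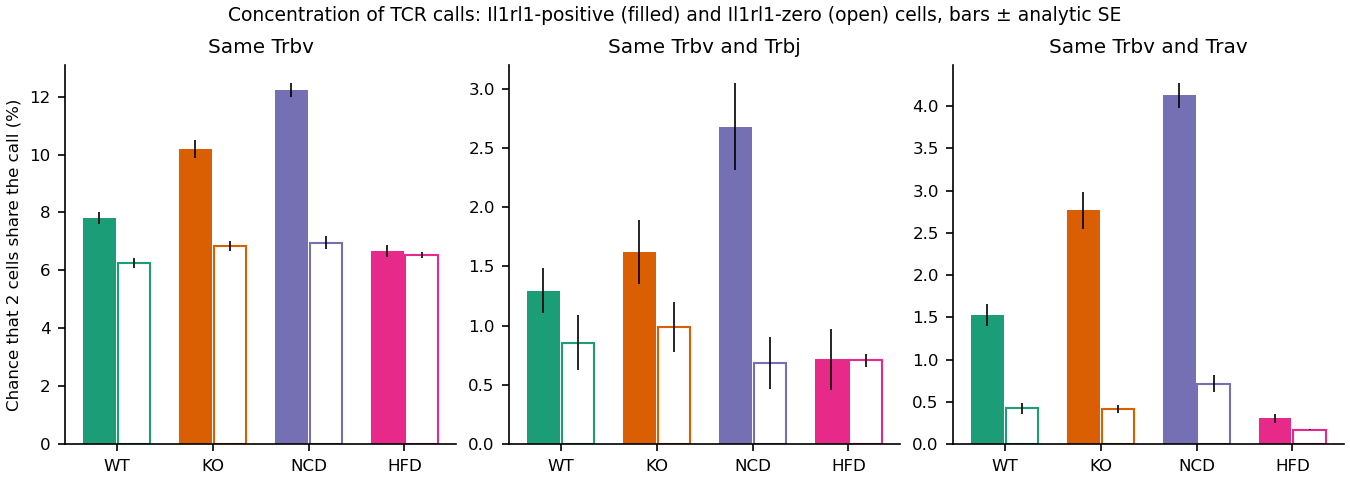
Chance that 2 cells of a class share their call (vertical axis, %) for Trbv, Trbv with Trbj, and Trbv with Trav, in Il1rl1-positive (filled) and Il1rl1-zero (open) cells of each condition (horizontal axis); bars are ± the analytic SE. For Trbv the filled bars stand at 7.81% (WT), 10.2% (KO), 12.2% (NCD) and 6.68% (HFD), and the open bars lie between 6.26% and 6.96%.

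Conditions differed more from each other in positive than in zero cells. The summed gap in Trbv usage, taken as the points of usage that would have to move to make 2 conditions equal, ranged over the 6 pairs of conditions from 24.5 to 43.1 points in Il1rl1-positive and from 14.4 to 19.3 points in Il1rl1-zero cells. Across the 24 segments with calls, Pearson's r between conditions ranged from 0.42 to 0.77 in positive and from 0.78 to 0.88 in zero cells, a description over segments that share libraries. In every condition the usage of Trbv5 was higher in positive cells, at 22.2% against 8.94% in KO, 16.5% against 10.3% in NCD, 7.32% against 6.23% in HFD, and equal to the first decimal place in WT (7.80% and 7.78%). Trbv3 was lower in positive cells in every condition, at 6.05% against 9.82% in WT, 5.95% against 8.79% in KO, 6.27% against 7.003% in NCD and 8.20% against 11.4% in HFD.

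The levels of the segments were tested over the 8 sums of UMIs (4 conditions, 2 classes) with edgeR's quasi-likelihood test and condition as block. Il1rl1 itself chose the classes and was left out. Of 11957 genes tested, 19.6% were called at an adjusted p under 0.05, with 11.3% higher and 8.32% lower in Il1rl1-positive cells. Of the 49 members, 34 passed the filter on low counts, and 8 of these fell (7 Trbv and Trbj1-1) while 0 rose. Of the other 15 members, 10 had no UMI and 5 (Trbv12-3, Trbv21, Trbv22, Trbj1-3 and Trbj1-7) were too low. At an unadjusted p under 0.05 there were 14 of 34 members, 0 of them higher, against 3981 of all 11957 genes in either direction. DESeq2 called 7 of 39 members lower and 0 higher, and its share over all genes was not worked out. The members' median log2 ratio was −0.57 against −0.01 over all genes tested. With robust shrinkage of the dispersions 5 of 34 members fell, while 19.9% of all genes were called in either direction. Under this edgeR option Trbv12-1, Trbv13-2 and Trbv19 missed the threshold (adjusted p 0.121, 0.0588 and 0.174). Without the block 0 passed by edgeR, and 6 had an unadjusted p under 0.05. Leaving out KO gave 5 calls among 34 members and leaving out HFD gave 12 among 33. Beside this contrast, a Foxp3 UMI was found in 59.1% of positive and 46.5% of zero cells in WT, 61.2% and 50.4% in KO, 57.3% and 41.1% in NCD, and 54.2% and 37.6% in HFD; the median UMIs per cell were 3802 and 3046 (WT), 3991.5 and 3166 (KO), 4221 and 3103 (NCD) and 3772 and 3091 (HFD). After each cell was thinned to 2000 UMIs, 6 of 26 tested members were called, all among the 8. In cells with a Foxp3 UMI 6 of 31 were called, 5 of them among the 8.

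Trbv13-3 had the smallest standard error of the called members: 29.4 against 53.6 CPM of the tested genes in WT, 30.4 against 49.9 in KO, 28.3 against 62.1 in NCD and 77.6 against 110 in HFD. Every condition was lower in positive cells, with a log2 ratio of −0.71 (SE 0.089, adjusted p = 0.00128 by edgeR). Trbv3 stood at 81.8 against 153 CPM in WT, 75.7 against 166 in KO, 76.0 against 117 in NCD and 177 against 222 in HFD, a log2 ratio of −0.66 (SE 0.112, edgeR adjusted p = 0.00502).

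Trbv12-1 had the lowest ratio among the called members, at −1.80 (SE 0.375, edgeR adjusted p = 0.0124). Its log2 ratio was −1.11 (WT), −3.66 (KO), −2.60 (NCD) and −1.11 (HFD), so all conditions were lower but by unequal amounts. Trbv14 (−1.53), Trbv24 (−1.11), Trbv13-2 (−0.92), Trbv19 (−0.84) and Trbj1-1 (−0.96, edgeR adjusted p = 0.0387) were likewise lower in all 4 conditions. Trbj1-1 was at 2.76 against 7.82 CPM in WT, 6.40 against 9.36 in KO, 0.704 against 2.71 in NCD and 2.89 against 4.97 in HFD. At these levels its call was lost in 9 of 15 alternative settings, more than any other called member. Trbv5 had the highest ratio of the Trbv segments, 0.31 (SE 0.194), and did not pass the test (edgeR adjusted p = 0.319), being at 37.1 against 48.6 CPM in WT and 110 against 57.2 in KO.

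In all, 13 of 34 members were lower in positive cells in all 4 conditions, against 3640 of all 11957 genes tested (30.4%). These were 7 of 22 Trbv, close to the share over all genes, and 6 of 12 Trbj segments. None of the members was higher in all 4 (13.9% of all genes). The constant segments, which every rearranged beta chain uses whatever its V segment, were also called lower by edgeR. Trbc1 had a log2 ratio of −0.64 (edgeR adjusted p = 0.00109) and Trbc2 of −0.56 (0.000265). Of the 16 tested genes of a 20-gene receptor signalling list, 9 fell, among them Zap70 and Lck, the proximal kinases of the receptor (−0.32 and −0.33). Trac, the alpha chain constant segment, did not pass (−0.15, edgeR adjusted p = 0.0932). A lower level of a segment in these sums can be fewer cells of a clone, fewer molecules per cell or more UMIs of other genes. The sums cannot tell these apart, and their parts were not tested. Summed Trbv CPM was 927 (WT), 1040 (KO), 934 (NCD) and 1441 (HFD) in positive cells and 1310, 1549, 1298 and 1789 in zero cells. Trbv UMIs per cell were 3.94 (WT), 4.77 (KO), 4.48 (NCD) and 6.92 (HFD) in positive cells. In zero cells they were 4.49, 5.49, 4.43 and 7.09. As shares of calls, Trbv13-3, Trbv14 and Trbj1-1 were each higher in positive cells in 1 condition and the other called members in none.

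**Figure D4:**
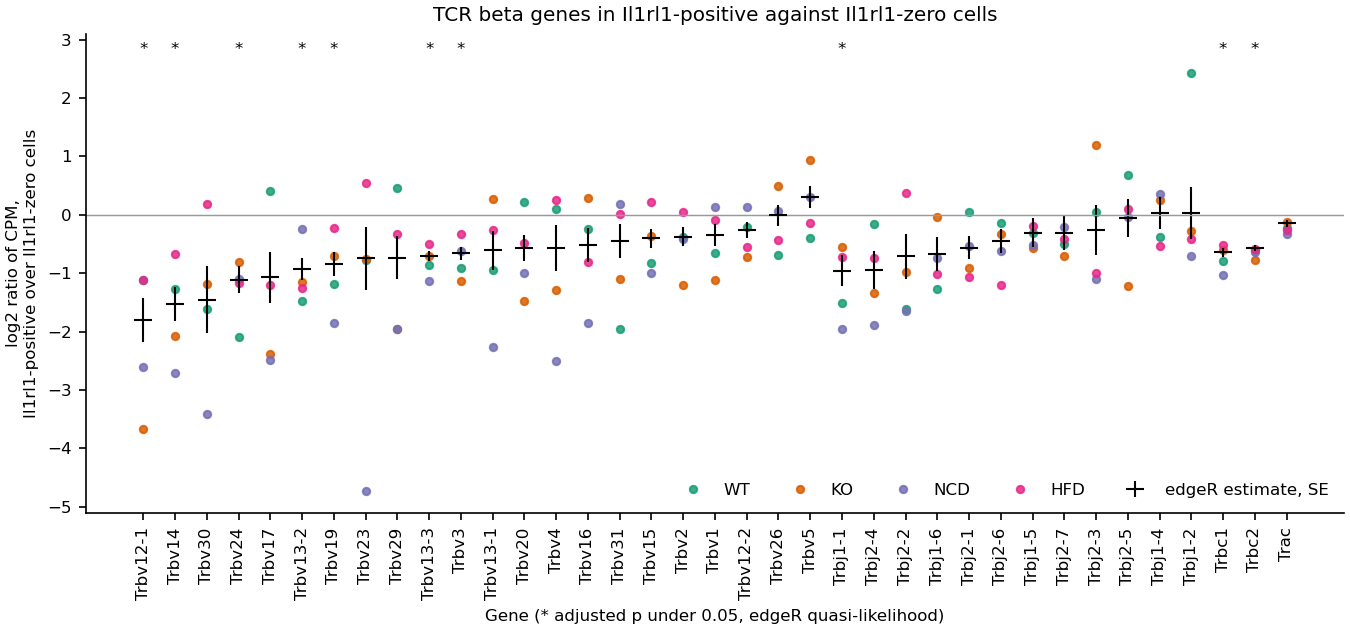
log2 ratio of CPM in Il1rl1-positive over Il1rl1-zero cells (vertical axis) for the 34 tested Trbv and Trbj segments and Trbc1, Trbc2 and Trac (horizontal axis); points are the 4 conditions, black marks the edgeR estimate ± SE, and asterisks an adjusted p under 0.05. The 8 segments with an asterisk lie below 0 in all 4 conditions, while Trbv5 and Trbv26 have conditions on both sides.

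KO and WT cells were compared by size only, since each is 1 pool of mice. Of 23 members at 5 CPM or more in either condition, 13 passed a 1.5-fold difference, with 8 higher and 5 lower in KO; of all 9822 such genes 3.1% did, 1.77% higher and 1.32% lower. The members' median log2 ratio was 0.08 and that of all genes 0.00. Trbv19 stood at 33.6 CPM (30.7 to 36.8, exact Poisson interval) in WT and 109 (104 to 114) in KO cells, a log2 ratio of 1.69 (1.55 to 1.84). Trbv26 stood at 37.1 and 93.8 CPM (1.34) and Trbv5 at 39.8 and 91.1 CPM (1.19).

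At the other end, Trbv4 was at 42.1 CPM in WT and 9.49 in KO cells (−2.15), Trbv17 at 57.2 and 13.3 (−2.10) and Trbv20 at 108 and 41.7 (−1.38). In cells of 1 class the differences were larger in Il1rl1-positive than in Il1rl1-zero cells for these 3 segments: −2.76 and −1.37 for Trbv4, −3.50 and −0.71 for Trbv17, and −2.13 and −0.44 for Trbv20. Of members at 5 CPM or more, 15 of 23 passed 1.5-fold in positive cells, with 8 higher and 7 lower, against 3.32% of all 9743 genes compared there (1.74% higher, 1.57% lower). In zero cells 6 of 24 passed, with 3 higher and 3 lower, against 7.78% of 10129 genes (3.88% higher, 3.9% lower). None of the 16 measured receptor signalling genes did in all cells, with Trbc1 at −0.11 and Trbc2 at 0.11. The constant segments thus differed by less than 1.5-fold where 13 single segments differed by more.

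Between HFD and NCD cells, 19 of 24 members at 5 CPM or more passed 1.5-fold, with 18 higher and 1 lower in HFD, against 21.8% of all 10024 genes (12.4% higher, 9.4% lower). Trbv12-1 was at 2.30 CPM (1.71 to 3.02) in NCD and 50.2 (47.0 to 53.5) in HFD cells, a log2 ratio of 4.44 (4.04 to 4.89). Trbv23 stood at 1.80 and 12.3 CPM (2.76) and Trbv17 at 7.34 and 34.2 CPM (2.22). Trbj1-4 was the member past 1.5-fold that was lower in HFD, at 5.13 and 3.34 CPM (−0.61), and Trbv5 stood at 98.1 and 71.0 CPM (−0.47) and Trbv1 at 171 and 143 CPM (−0.25).

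Other values moved with this comparison. Il1rl1-positive cells made up 78.1% of NCD and 17.6% of HFD cells, and cells with at least 2 UMIs of each of 2 Trbv segments made up 8.26% of NCD and 15.8% of HFD cells. Within classes and past 1.5-fold, 15 of 23 members were higher and 2 lower in Il1rl1-positive cells, where 12.2% of all 9886 genes compared were higher and 7.03% lower. In Il1rl1-zero cells 13 of 26 were higher and 1 lower, where 7.74% of 10034 genes were higher and 8.73% lower. Trbv12-1 stayed higher in HFD in both, at log2 ratios of 4.36 and 2.87, while Trbv23 was at 5.55, on 6 UMIs in NCD, and 0.28. The constant segments were also higher in HFD, Trbc1 at 39.4 and 87.5 CPM (1.15) and Trbc2 at 150 and 288 CPM (0.95), and 5 of the 16 receptor signalling genes passed 1.5-fold, all higher: Zap70, Cd28, Cd3d, Trbc1 and Trbc2. Shares of calls are not scaled by total UMIs, but they rest on the Trbv UMIs per cell, 4.47 in NCD and 7.06 in HFD. By this measure, Trbv31, Trbv5 and Trbv12-2 were lower in HFD (6.57%, 6.42% and 11.4%) than in NCD (16.5%, 15.2% and 18.0%). Trbv19 and Trbv3 were higher in HFD (8.05% and 10.8% against 2.98% and 6.43%). Calls on 1 UMI were 27.1% and 8.14% (Trbv31), 23.4% and 21.4% (Trbv5), and 24.3% and 17.0% (Trbv12-2) in NCD and HFD. The part of these other values in the difference was not tested.

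**Figure D5:**
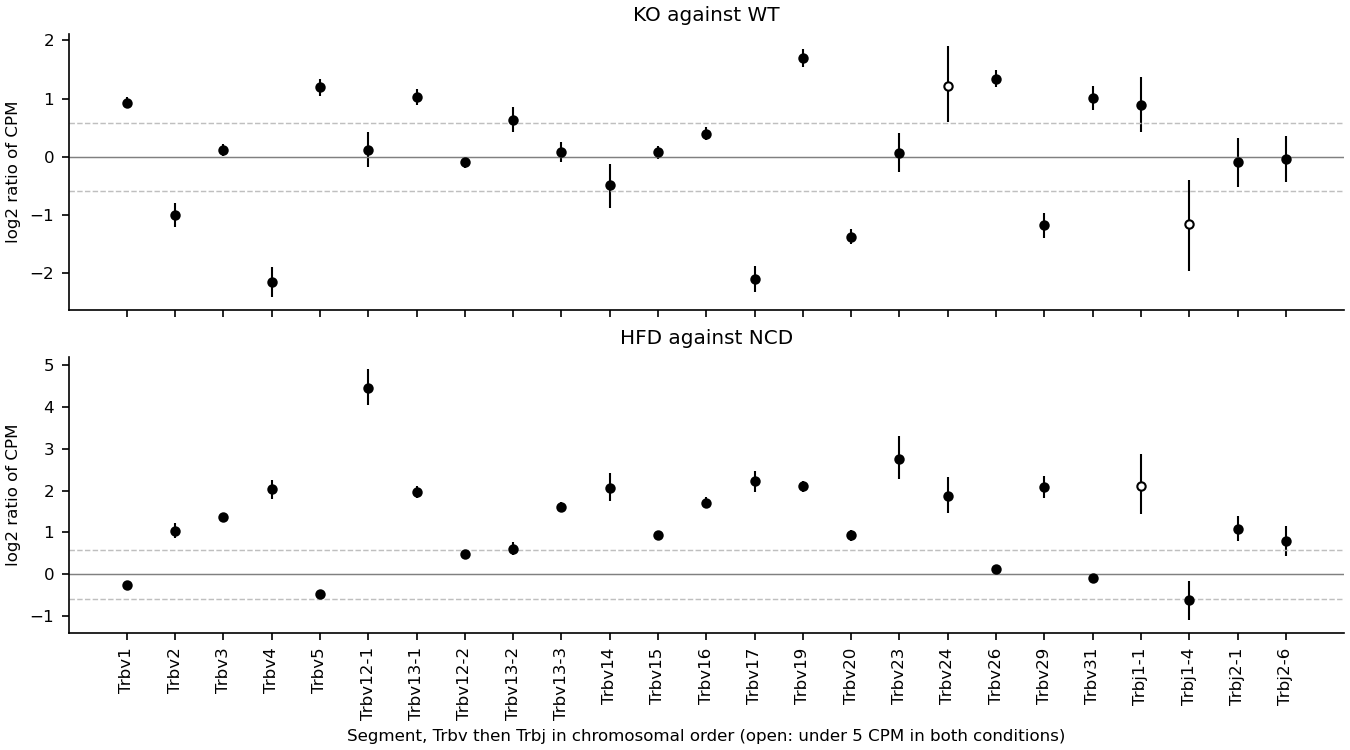
log2 ratio of CPM (vertical axis) for KO against WT (top) and HFD against NCD (bottom) for members at 5 CPM or more in at least 1 comparison (horizontal axis); points are ratios, vertical lines exact 95% intervals for counting error, dashed lines mark 1.5-fold and open points are segments under 5 CPM in both conditions. Segments lie on both sides of 0 in KO against WT, from −2.15 to 1.69, and mostly above 0 in HFD against NCD, up to 4.44.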

How the data were processed

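UMI counts per gene and cell were deposited as raw matrices with hashtag counts as further rows, per the file headers, which name Cell Ranger 7.1.0 (Srebf2 pool) and 7.0.1 (diet pool). For both pools, version 7.0.1 and the mm10 build stand in the submitters' processing notes. Cells were kept with 500 or more genes, under 10% mitochondrial UMIs, 90% or more of the pool's hashtag UMIs from their own hashtag, and no Cd79a, Lyz2 or Cd8a UMI. Doublets within a condition were not removed. The members and lists were chosen with earlier results of these data known. Named segments were the 10 Trbv and 4 Trbj with the highest mean usage, the 3 highest and 3 lowest ratios of each comparison, all called members and the 3 leading Trbv-Trbj pairs of each condition.

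Counts were summed per condition (14010241 to 22200627 UMIs) and Il1rl1 class and tested with edgeR 4.0.16 in R 4.3.3 (glmQLFit and glmQLFTest with default options, TMM, filterByExpr, Benjamini-Hochberg), with condition as block, because both classes of a condition come from the same mice. The script was tested on simulated data, where the share of false calls exceeded the target rate. After these results were seen, 4 edgeR option sets were run in all: 2 called the same 8 members and 2, with robust shrinkage, called 5. The default options, run first and as designed, are reported, and the others are alternatives. DESeq2 1.42.0 was an alternative. The 4 conditions serve as replicates of the class contrast although they differ by genotype and diet. KO against WT and HFD against NCD have 1 pool each and no test; log2 ratios there add 0.5 UMIs to each sum. Intervals are at 95% and cover counting error only. For pairs with 0 cells, the limit given is 3 divided by the number of cells with both calls. That approximate limit lies below the upper end of a Clopper-Pearson interval. A result for 1 gene of the receptor signalling list is not reported here.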

Additional observations from a re-analysis of the deposited data

Results flagged for a closer look

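Of 22 differences between Il1rl1-positive and Il1rl1-zero cells checked over the 4 conditions, 5 stood out. For 1 of these, a single condition lay far from the others: the usage of Trbj1-4 was higher in positive cells by 6.91 points in NCD, against 1.88 in WT, 1.77 in KO and 1.249 in HFD. Chance gives such a gap in about 1 in 20 groups. The NCD value rests on 71 of 432 positive and 12 of 126 zero cells, and 43 NCD positive cells held Trbv12-2 with Trbj1-4.

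For the other 4, both conditions of the Srebf2 pool lay on one side of 0 and both of the diet pool on the other. The rate of 1 in 20 does not belong to this rule. No chance rate was worked out for it, and these differences were not tested. Trbv31 usage in positive minus zero cells was −1.56 points (WT), −2.09 (KO), 8.03 (NCD) and 1.79 (HFD), so the diet pool's mean was 6.74 points higher. For Trbv1 the values were −1.88, −2.94, 0.147 and 1.46, a gap of 3.22 points. For Trbv16 they were 1.59, 3.08, −3.04 and −1.41, a gap of −4.56 points. For Trbj2-6 they were 1.02, 5.82, −0.595 and −4.83, a gap of −6.13 points. The pools differ in mouse strain, genotype and experiment, which cannot be told apart.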

How the results depend on the processing

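The number of members called by edgeR between Il1rl1 classes (8 of 34 tested) was 5 of 26 with own hashtags at 99% or more. It was 25 of 39 with no filter on low counts (24 lower and 1 higher) and 0 of 34 with no replicate block. Robust shrinkage, added after seeing the data, gave 5 of 34 under either quasi-likelihood method. With the main method it called 19.9% of all genes, against 19.6% without it. Shares over all genes under the other settings were not worked out. With the condition left out in turn, the number of members called was lowest without KO (5 of 34) and highest without HFD (12 of 33). Every called member kept its direction in the 15 alternatives. Past 1.5-fold, KO against WT gave 20 of 37 members with no CPM minimum and 20 of 39 by cells with a UMI, against 13 of 23. HFD against NCD gave 30 of 38 with no CPM minimum, against 19 of 24. More members were thus compared under these settings, and the shares over all genes are not given for them. The Trbv-Trbj concentration difference (0.768 points) was −3.96 with own hashtags at 99% or more, and 0.359 to 1.02 with a condition left out, lowest without NCD. Usage of Trbv20 in WT (12.7%) was 15.3% with own hashtags at 99% or more and 10.6% over summed UMIs. Usage of Trbv5 in KO (16.8%) was 18.4% in cells with a Foxp3 UMI, 14.3% after thinning, 12.8% with calls at 2 UMIs or more and 7.47% over summed UMIs. Usage of Trbv12-2 was 14.5% over summed UMIs in NCD and 12.5% with own hashtags at 99% or more in HFD. The causes were not tested. Trbj calls in 11.3% to 14.9% of cells limit every statement on J segments, and receptor sequences were not analysed here, so clones were not resolved.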
